A study of Mus musculus with 6 samples.

Results

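The 9 genes described here encode the neuregulins (Nrg1, Nrg2, Nrg3 and Nrg4), the receptors of the ErbB family (Egfr, Erbb2, Erbb3 and Erbb4) and heparin-binding EGF-like growth factor (Hbegf). They were chosen by name, and all 9 were found among the 20040 gene entries of the deposited table. The samples were cultured cortical neurons from mouse embryos of the C57BL/6 background taken at embryonic day 18, with 3 libraries labelled wild type (WT) and 3 labelled KDM6B KO (KO), sequenced as mRNA. Kdm6b encodes a histone demethylase that acts on methylated lysine 27 of histone H3. The study set WT against KO neurons to see how its loss alters transcripts. Which part of Kdm6b was deleted, in which cells, how long the cells grew in culture and whether replicates were separate embryos or cultures is not stated in the labels. The p-values therefore reflect only how much these libraries vary, and that variation may be technical.

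Neuregulins are membrane-anchored growth factors that carry an EGF-like domain, and many are released by proteases before they bind a receptor. Erbb3 and Erbb4 bind neuregulins, Erbb2 binds no known ligand and works as the partner of the other receptors, Erbb3 has little kinase activity of its own, and Egfr binds EGF-type ligands such as Hbegf, which also binds Erbb4. In the cortex Erbb4 is known for its expression in GABAergic interneurons, where neuregulin signals act on migration and synapse formation, Erbb3 for its expression in the oligodendrocyte lineage, and Egfr for its expression in glial progenitors and astrocytes.

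The values are TPM, a transcript share that is scaled by gene length and sums to 1000000 in each library. Whole read counts could be recovered from them, with 19761714 to 23503660 counts per library. The log2 values of library pairs correlated at 0.987 to 0.988 within groups and at 0.983 to 0.984 across groups over 14983 genes, those that averaged 0.5 TPM or more and were tested. Kdm6b itself had 30.9, 30.3 and 30.7 TPM in WT, against 11.2, 11.1 and 12.0 TPM in KO, 37.3% of the WT mean. Sex-linked transcripts separated the groups. The summed level of the Y-linked genes Uty, Kdm5d, Ddx3y and Eif2s3y was 91.0 to 93.9 TPM in WT and 0.149 to 0.754 TPM in KO, and Xist was at 70.8 to 77.7 TPM in WT and 224.0 to 241.0 TPM in KO, so genotype and the sex mix of the embryos cannot be told apart in any difference below, although none of the 9 genes lies on X or Y. The labelled cell type was present, since markers common to neurons, such as Tubb3 and Snap25, summed to 6600 to 6640 TPM in WT libraries and 6930 to 7010 TPM in KO libraries. Astrocyte and radial glia markers summed to 6930 to 7180 TPM in WT and 7630 to 7880 TPM in KO, so the cultures held many glial transcripts as well. Most of this sum was Fabp7 (means of 2510 TPM in WT and 2740 TPM in KO) and Apoe (1820 and 2050 TPM). Single markers of the list moved in both directions, so the sum does not show more glia in KO. Of 10 tested markers of meningeal fibroblasts 3 were higher and none lower in KO (30% called, beside 10.9% over all tested genes). Their median log2 fold change was 0.49, and the list summed to 189.0 to 204.0 TPM in WT and 205.0 to 224.0 TPM in KO. Most of this sum was Pdgfra, also a marker of oligodendrocyte precursors, with means of 148.0 TPM in WT and 151.0 TPM in KO. Of 12 microglial markers 11 had a mean under 1 TPM.

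Of the 7 members that could be tested, Nrg1 was higher in KO, Erbb4 and Hbegf were lower, and Nrg2, Nrg3, Egfr and Erbb2 did not pass. Erbb3 and Nrg4 lay below the limit of 0.5 TPM and are given as values. The test was limma on log2 of TPM plus 0.5, with Benjamini-Hochberg adjustment across the 14983 tested genes and a threshold of 0.05. Of all tested genes 10.9% passed it, 4.15% higher and 6.74% lower in KO. The median log2 fold change of the 7 members was -0.20, against -0.02 over all tested genes. In 5 of the 7 every KO value lay beyond the WT range on the same side, above it in 1 gene and below it in 4. Over all tested genes this held for 31.7%, 12.5% above and 19.2% below.

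Both of the most abundant members, the ligand gene Nrg3 and the receptor gene Erbb4, are loci of more than a megabase. Erbb4 spans 68032186 to 69108059 on the minus strand of chromosome 1 and Nrg3 spans 38368952 to 39473088 on the minus strand of chromosome 14 (GENCODE M21 on GRCm38). The 250 bases before the start of each are shown because these genes had similar levels in WT while Erbb4 was lower in KO and Nrg3 did not pass the test. They are RefSeq sequences on GRCm38.p6, written 5′ to 3′ on the strand of the gene, at chr1:69108060-69108309 and chr14:39473089-39473338. Capitals mark CG, the dinucleotide at which mammalian DNA is methylated and which is dense in CpG islands. CG reads the same on both strands.
Erbb4: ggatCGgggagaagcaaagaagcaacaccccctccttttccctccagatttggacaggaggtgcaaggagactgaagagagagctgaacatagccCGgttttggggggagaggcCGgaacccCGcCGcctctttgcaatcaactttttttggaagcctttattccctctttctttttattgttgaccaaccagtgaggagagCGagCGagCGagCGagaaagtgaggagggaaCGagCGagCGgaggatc
Nrg3: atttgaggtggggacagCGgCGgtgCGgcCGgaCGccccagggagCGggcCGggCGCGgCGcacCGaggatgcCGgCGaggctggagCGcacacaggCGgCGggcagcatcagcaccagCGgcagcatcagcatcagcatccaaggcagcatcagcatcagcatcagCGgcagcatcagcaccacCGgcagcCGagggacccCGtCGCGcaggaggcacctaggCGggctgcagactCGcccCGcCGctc
The Erbb4 window held 12 CG and the Nrg3 window 27. The motif CG was present in 92.1% of 32851 RefSeq windows of the same length, with a median of 6, and 33.5% of them had at least as many as Erbb4 and 8.6% at least as many as Nrg3. Windows were also given for Egfr (11 CG), Erbb2 (16) and Nrg4 (10). Windows follow RefSeq starts, which can differ from the GENCODE spans. The Nrg4 window, 55283626 to 55283875 on chromosome 9, lies inside the GENCODE span of that gene (55220222 to 55326844). The Erbb2 window ends at 98412483, past the GENCODE start at 98412470. Histone methylation was not measured in these libraries.

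**Figure D1:**
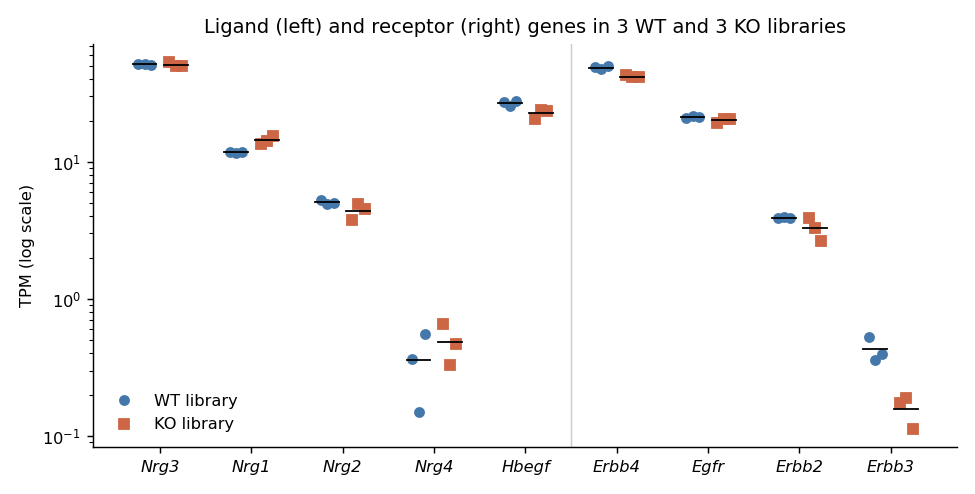
TPM (vertical axis, log scale) of the 5 ligand genes and the 4 receptor genes (horizontal axis) in each WT library (circles) and KO library (squares), with a line at the mean of 3. Nrg3 and Erbb4 lie highest, near 50 TPM, Nrg4 and Erbb3 lie under 1 TPM, and the KO libraries lie above WT for Nrg1 and below WT for Erbb4 and Hbegf.

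The order of levels was nearly the same in both groups. In WT it ran from Nrg3 at 51.5 ± 0.362 TPM (mean ± SD, n = 3) over Erbb4 at 48.8 ± 1.04, Hbegf at 26.8 ± 1.02, Egfr at 21.3 ± 0.263, Nrg1 at 11.8 ± 0.119, Nrg2 at 5.08 ± 0.189 and Erbb2 at 3.92 ± 0.0191 down to Erbb3 at 0.427 ± 0.0854 and Nrg4 at 0.356 ± 0.202 TPM. Neighbours in this order did not overlap between libraries, except Erbb3 and Nrg4. In KO the ranges of Hbegf and Egfr overlapped, as did those of Nrg2 and Erbb2, and Nrg4 (20 counts over 3 libraries) stood above Erbb3 (14 counts). TPM allows levels of different genes to be compared, but each gene carries 1 length, so the many isoforms of the neuregulin genes, which start at different promoters, were not separated.

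Nrg1, the neuregulin studied most in the cortex and in peripheral nerve, was the 1 member that rose. It had 11.9, 11.7 and 11.8 TPM in WT, against 13.5, 14.3 and 15.5 TPM in KO, on 170 to 238 counts per library. The KO libraries all lay above WT, and they were spread more widely than the WT libraries. The WT values lay closer together than read counting alone would usually leave them at 170 to 186 counts. The wider KO spread is therefore not read as a trait of the KO group. The means differed 1.22-fold, a log2 fold change of 0.27 ± 0.06 (SE) that passed the test (limma adjusted p = 0.0321). This call was lost in 5 of the 6 fits that left out a single library, at adjusted p = 0.0900, 0.0887 and 0.0827 without WT replicates 1, 2 and 3 and 0.0886 and 0.0918 without KO replicates 2 and 3, and also without the filter on low values (0.0554). A fit to the recovered counts (limma voom) gave a wider SE of 0.09 for Nrg1, at adjusted p = 0.0215. The gene spans 31814551 to 32884029 on the minus strand of chromosome 8, and the length behind its TPM was 2103 bases, so a change in the use of its isoforms could not be seen.

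Nrg3, a neuregulin expressed mainly in the nervous system, was the most abundant member and did not differ detectably. It had 51.9, 51.5 and 51.1 TPM in WT, against 53.3, 50.3 and 49.8 TPM in KO. The groups overlapped, and the log2 fold change was -0.01 with a 95% interval from -0.09 to 0.07 (limma adjusted p = 0.89). Each library held 1329 to 1604 counts of it.

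Nrg2, a neuregulin of the brain, lies on chromosome 18 with Hbegf and had 5.30, 4.96 and 4.99 TPM in WT, against 3.74, 4.92 and 4.54 TPM in KO. All KO libraries were below WT, although KO replicate 2 lay close to WT replicates 2 and 3. The log2 fold change of -0.20 had an interval from -0.46 to 0.07 and did not pass (limma adjusted p = 0.33), on 76 to 110 counts per library. Nrg4, which is better known from fat tissue, had 5, 2 and 8 counts in WT and 9, 5 and 6 in KO, 0.356 ± 0.202 and 0.483 ± 0.162 TPM (SD, n = 3), and its groups overlapped.

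The neuregulins together summed to 68.3 to 69.5 TPM in WT libraries and 69.8 to 71.2 TPM in KO libraries. Nrg3 made up 74.7% to 75.4% of this sum in WT and 70.9% to 74.9% in KO, Nrg1 17.1% to 17.2% in WT and 18.9% to 22.0% in KO, and Nrg2 7.26% to 7.63% in WT and 5.26% to 7.04% in KO. The share of Nrg1 was thus above its WT range in each KO library and that of Nrg2 below it.

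Hbegf, a ligand made as a membrane protein and shed by proteases, fell. It had 27.2, 25.7 and 27.6 TPM in WT, against 20.6, 23.9 and 23.4 TPM in KO, on 351 to 492 counts. KO replicate 1 was the lowest library, and no KO library reached a WT value. The KO mean was 84.3% of WT, with a log2 fold change of -0.24 ± 0.06 (SE; limma adjusted p = 0.0476), close to the threshold. The call was lost when any single library was left out, at adjusted p = 0.14, 0.0728 and 0.13 without WT replicates 1, 2 and 3 and 0.0918, 0.0616 and 0.0853 without KO replicates 1, 2 and 3. It was also lost after median centring (0.0689), after quantile normalization (0.0712), without the filter (0.0736) and without the variance trend (0.0970).

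Erbb4, the neuregulin receptor with the highest level here, fell in all KO libraries. It had 48.9, 47.7 and 49.8 TPM in WT, against 43.0, 41.3 and 41.4 TPM in KO, on 1164 to 1591 counts per library. The groups were separated by more than their own spread. The KO mean was 85.8% of WT, with a log2 fold change of -0.22 ± 0.03 (SE) and an interval from -0.30 to -0.14 (limma adjusted p = 0.0070). It passed in all 16 alternative fits, with adjusted p up to 0.0343, which was reached without WT replicate 1.

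**Figure D2:**
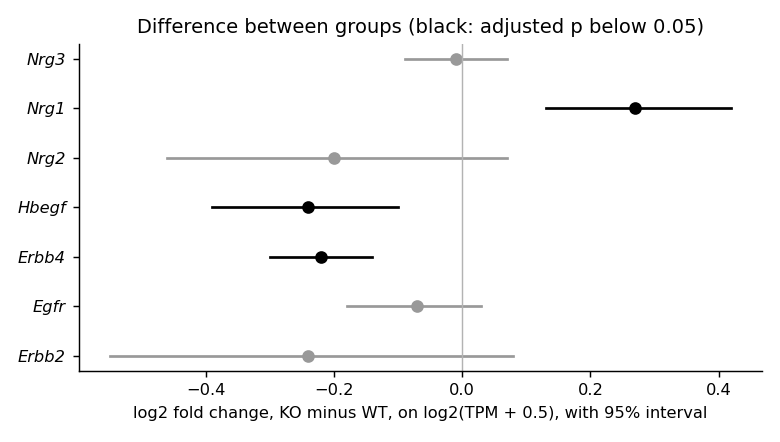
Log2 fold change of KO against WT (horizontal axis, on log2 of TPM plus 0.5) with its 95% interval for the 7 tested members. The intervals of Nrg1, Hbegf and Erbb4 (black) leave out 0, those of Nrg3, Nrg2, Egfr and Erbb2 (grey) hold it, and the widest is that of Erbb2, from -0.55 to 0.08.

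Markers of the cells that carry Erbb4 moved with it. Of 24 interneuron markers 11 were lower and 1 was higher in KO, where 6.74% of all tested genes were lower and 4.15% higher. The median log2 fold change of the list was -0.22, and its summed level was 2080 to 2130 TPM in WT and 1730 to 1830 TPM in KO. No marker of this list was at 0. Gad1, the gene of a GABA-synthesizing enzyme, stood at 74.0% of WT and Lhx6, a transcription factor of interneurons from the medial ganglionic eminence, at 72.8%, while Dlx1, a transcription factor of the interneuron lineage, was 1.25-fold higher. Of 16 excitatory neuron markers 9 were lower, 2 were higher and 5 did not pass (68.8% called, beside 10.9% over all genes), with a median log2 fold change of -0.22 and sums of 2510 to 2570 TPM in WT and 1900 to 1990 TPM in KO. Of the 10 markers common to neurons 3 were higher and 1 lower, with a median of 0.08. The part of these lists in the Erbb4 difference was not tested, and in these bulk samples fewer cells of a type and less RNA per cell cannot be told apart.

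Egfr had 21.0, 21.5 and 21.2 TPM in WT, against 19.3, 20.6 and 20.7 TPM in KO. The KO libraries lay below WT, with KO replicates 2 and 3 close to it, and the log2 fold change of -0.07 had an interval from -0.18 to 0.03 (limma adjusted p = 0.37). Of 15 astrocyte and radial glia markers 4 were higher and 3 lower (46.7% called, beside 10.9% over all genes), among them Aldoc, a glycolytic enzyme gene of astrocytes, at 1.39-fold and Vim, an intermediate filament gene of radial glia, at 72.2% of WT.

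Erbb2, the partner receptor without a ligand of its own, had 3.90, 3.94 and 3.92 TPM in WT, against 3.91, 3.29 and 2.66 TPM in KO. KO replicate 1 was at the WT level and KO replicate 3 was lowest, so the groups overlapped, and the difference did not pass (log2 fold change -0.24, interval -0.55 to 0.08, limma adjusted p = 0.33). Without KO replicate 3 the log2 fold change was -0.11, and without KO replicate 1 it was -0.35, at adjusted p = 0.64 and 0.17.

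Erbb3, the neuregulin receptor with an impaired kinase, was detected by few reads, with 15, 10 and 12 counts in WT and 5, 6 and 3 in KO. These correspond to 0.523, 0.360 and 0.398 TPM in WT, against 0.173, 0.189 and 0.113 TPM in KO, so no KO library reached a WT value and the KO mean was 37.1% of WT. In the fit without a filter on low values its log2 fold change was -0.49 ± 0.12 (SE), which the pseudocount compresses, at a limma adjusted p of 0.056. Oligodendrocyte lineage markers, of cells known for Erbb3, had 2 of 13 tested genes lower and none higher (15.4%, near the 10.9% called over all genes), with a median log2 fold change of -0.09 and sums of 807.0 to 875.0 TPM in WT and 796.0 to 849.0 TPM in KO. The defining markers Olig1, Olig2 and Sox10 had means of 265.0, 115.0 and 57.3 TPM in WT, against 267.0, 119.0 and 54.7 TPM in KO. Mog, a marker of mature myelin, had a mean of 0.407 TPM in WT and 0.180 TPM in KO and was at 0 in KO replicate 3. Cspg4, which encodes the NG2 proteoglycan of oligodendrocyte precursors and pericytes, was among those lower, at 87.3% of WT, while the precursor marker Pdgfra stood at 148.0 TPM in WT and 151.0 TPM in KO. Other markers of the list differed among themselves. Enpp6 was at 59.8% of WT, with every KO library below WT (limma adjusted p = 0.0644), and Mag at 64.7%, with overlapping groups (0.14). Mbp, Cnp and Bcas1 were at 100.0%, 95.4% and 93.7% of WT, and none of these markers passed. Their part in the Erbb3 difference was not tested.

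The 4 receptor genes summed to 73.6 to 75.3 TPM in WT and 64.8 to 66.4 TPM in KO. Erbb4 made up 64.9% to 66.1% of that sum in WT and 63.1% to 64.8% in KO, and Egfr 28.1% to 29.3% in WT and 29.0% to 31.9% in KO. Most of the drop in the sum was therefore a drop in Erbb4 TPM.

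**Figure D3:**
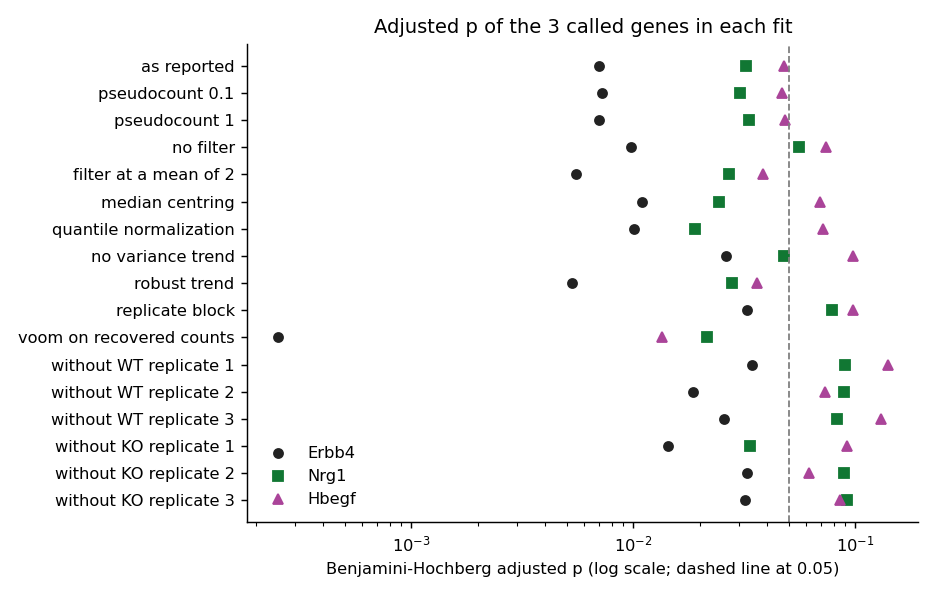
Benjamini-Hochberg adjusted p (horizontal axis, log scale) of Erbb4 (circles), Nrg1 (squares) and Hbegf (triangles) in the fit as reported and in 16 alternative fits (vertical axis), with a dashed line at 0.05. Erbb4 stays left of the line in all fits, Nrg1 in 9 and Hbegf in 5 of the 16 alternatives.

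Genes whose levels followed the members most closely over the 6 libraries were found by Pearson correlation of log2 values among the 10957 genes that averaged 5 TPM or more. With 6 points in 2 groups of 3, high values are common: 416 genes reached 0.95 with Erbb4, 89 with Nrg1, 34 with Erbb2 and 12 with Nrg3. Genes picked this way follow their member in the same libraries, so their own test results are not independent of the choice. The closest to Erbb4 were Neto2, an auxiliary subunit gene of kainate receptors (r = 0.997, KO 79.6% of WT), Nos1ap, an adaptor gene of neuronal nitric oxide synthase (r = 0.997), and Epb4.1l2, a membrane skeleton gene (r = 0.996, KO 87.4% of WT). Neto2 and Epb4.1l2 passed the test and Nos1ap, at 90.2% of WT, did not (limma adjusted p = 0.0597). The closest to Nrg1 were Skap2, Itsn1 and Bcr (r = 0.993, 0.993 and 0.992), of which Skap2 passed at 1.31-fold (adjusted p = 0.016), a call lost without WT replicate 1 (0.0559) or 2 (0.0562) or KO replicate 2 (0.0514) or 3 (0.0506). Pdpk1, a kinase gene, Trappc6b and Syngr2 were closest to Erbb2 (r = 0.993, 0.987 and 0.980) and Fam175b, Apln and B4galt6 to Nrg3 (r = 0.989, 0.980 and 0.975), and none of these 6 passed.

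Of 9 other ligand-like genes with an EGF motif, 5 could be tested and 3 rose. These were Tmeff1 and Tmeff2, which encode membrane proteins with follistatin and EGF-like domains, and Cspg5, a brain proteoglycan also known as neuroglycan C. Tmeff1 had 156.0, 154.0 and 158.0 TPM in WT, against 184.0, 179.0 and 179.0 TPM in KO, a log2 fold change of 0.21 ± 0.02 (SE; limma adjusted p = 0.0018). Tmeff2 was 1.21-fold higher (adjusted p = 0.0020), with every KO library above every WT library. Cspg5 was 1.10-fold higher (adjusted p = 0.0212), a call lost without WT replicate 2 (0.0541) or KO replicate 1 (0.0523), 2 (0.0747) or 3 (0.0701). The list had a median log2 fold change of 0.14, and the 3 that passed are 60% of its tested genes, beside 10.9% over all genes.

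Of 15 tested proteases and cofactors that release or trim the ligands and receptors, Bace2, a relative of the beta-secretase that processes Nrg1, fell and 14 did not pass (6.67% of the list). Bace2 had 11.7, 10.5 and 11.6 TPM in WT, against 7.95, 7.62 and 6.60 TPM in KO, 65.5% of WT (log2 fold change -0.58 ± 0.09 SE, limma adjusted p = 0.0056). Its KO libraries lay well below WT. The median log2 fold change of the list was -0.02, the same as over all genes.

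Among 44 tested adaptors, kinases and effectors downstream of ErbB receptors, 3 fell and 2 rose, 11.4% of the list, which is near the 10.9% of all genes. Map2k1, the gene of the kinase MEK1, had 189.0, 190.0 and 195.0 TPM in WT, against 160.0, 150.0 and 151.0 TPM in KO, 80.4% of WT (log2 fold change -0.31 ± 0.03 SE, limma adjusted p = 0.0011). It kept every KO library below every WT library and passed in all 16 alternative fits. Braf, a kinase gene of the same chain, at 87.2% of WT (adjusted p = 0.0359), lost its call without WT replicate 1 (0.11) or 3 (0.0949) or KO replicate 2 (0.11) or 3 (0.11), and after median centring (0.0543) or quantile normalization (0.0556).
Pak1, a kinase of actin regulation, was 1.10-fold higher (adjusted p = 0.0167, or 0.0648 without KO replicate 2) and Akt2, a kinase of the PI3K branch, 1.09-fold higher (limma adjusted p = 0.0324). Akt2 lost its call without any single library, at adjusted p between 0.0577 and 0.11.

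**Figure D4:**
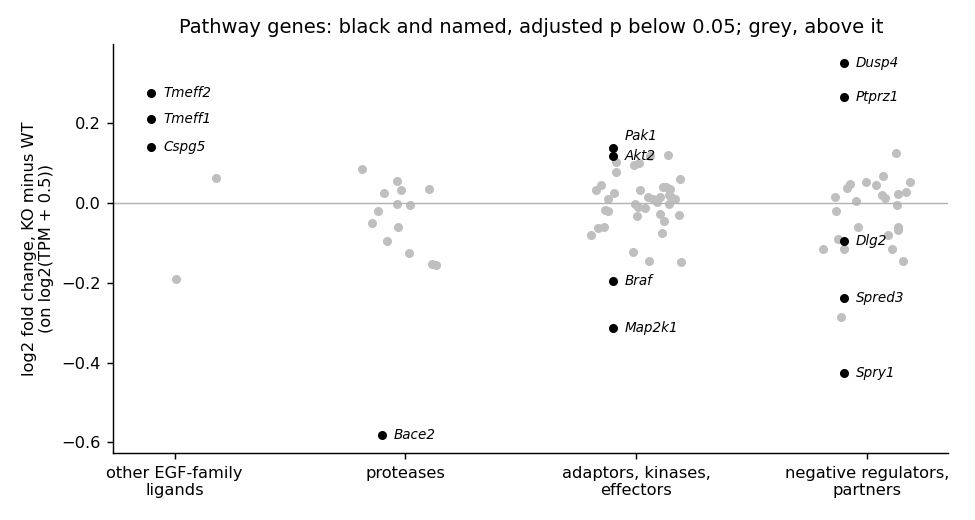
Log2 fold change of KO against WT (vertical axis, on log2 of TPM plus 0.5) for tested genes of 4 pathway lists (horizontal axis), with genes that passed in black and named. Most genes lie near 0, 3 EGF-family genes lie above it, and Bace2 lies lowest, at -0.58.

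Of 31 negative regulators and receptor partners 2 rose and 3 fell, 16.1% of the list beside 10.9% of all genes. Ptprz1, a receptor phosphatase gene of glia and progenitors, had 522.0, 517.0 and 524.0 TPM in WT, against 629.0, 626.0 and 626.0 TPM in KO, 1.20-fold higher (log2 fold change 0.27 ± 0.02 SE, limma adjusted p = 0.00026). Its libraries were tightly grouped on both sides. Dusp4, the gene of a nuclear phosphatase that inactivates ERK, was 1.29-fold higher (adjusted p = 0.0311), with KO replicate 1 at 31.4 TPM and the other KO libraries at 25.9 and 25.1 TPM.
Spry1 and Spred3, which encode inhibitors of the Ras to ERK chain, were at 73.3% and 84.6% of WT (adjusted p = 0.0264 and 0.0227), and Dlg2, a scaffold gene of the postsynaptic density, at 93.7% (adjusted p = 0.0265). Of these 5 genes Ptprz1 passed in all 6 fits that left out a library. Dusp4 lost its call without WT replicate 1 (0.0823), 2 (0.0935) or 3 (0.0861) or KO replicate 2 (0.0595). Spry1 lost it without WT replicate 1 (0.0982) or 3 (0.0845) or KO replicate 1 (0.0807) or 3 (0.0852), and Spred3 without WT replicate 1 (0.0848) or 2 (0.0595) or KO replicate 2 (0.0679) or 3 (0.0688). Dlg2 lost it without any single library but KO replicate 1, at adjusted p up to 0.0932, and after median centring (0.0746) or quantile normalization (0.0811).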

How the data were processed

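The authors deposited 1 table of gene-level TPM for the 6 libraries. Its name says FPKM, but every library adds up to 1000000. The tools are named in the submitters' processing notes without roles: TopHat, featureCounts, edgeR, Picard 1.127, FastQC 0.11.2 and bcl2fastq 2.17, with build mm10. Annotation and strand use are not given there, so any reads of opposite-strand genes that fall in shared exons cannot be told apart. By whole gene span, introns included, Fbxo22 overlaps Nrg4, Mien1 overlaps Erbb2, and the noncoding genes Gm22140 and Gm26578 overlap Nrg1. Antisense transcripts are annotated in the spans of Nrg2, Nrg3 and Egfr. Whether exons overlap was not checked.

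Counts were recovered as the smallest whole numbers that fit 1 step per library and 1 whole length per gene, within 0.001 counts plus rounding of the file, for all 19369 entries above 0. A gene whose counts share a divisor can come out too low. 1 count was worth 0.126 to 0.151 TPM for a length of 1 kb. The main test was limma 3.58.1 in R 4.3.3 on log2 of TPM plus 0.5 with a variance trend, for genes averaging 0.5 TPM or more, without covariates, with Benjamini-Hochberg adjustment. Folds are ratios of mean TPM. The script was tested on simulated data, where it found 28 of 50 genes changed 1.3-fold and called 11 of 14783 unchanged genes. The simulated libraries varied by counting noise plus a small fixed amount that was not estimated from these libraries. Genes with very few counts were not among those changed. These rates may therefore not hold for the real libraries. No smaller change was simulated, and the 3 called members differ by less than 1.3-fold. Members and lists were chosen with earlier results of these data known. Named genes are all members, up to 5 genes per direction that passed in each pathway list, and the 3 closest genes to Nrg1, Nrg3, Erbb4 and Erbb2. Some genes that this rule or the lists pick are counted but not reported here by name. Positions come from the M21 release of GENCODE (GRCm38, equal to mm10). 16 alternatives were fitted.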

Additional observations from a re-analysis of the deposited data

How the results depend on the processing

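Over all genes 622 were higher and 1010 lower in KO. Leaving out the variance trend gave 406 and 658. There were 1183 higher with limma voom on recovered counts, and 345 to 440 higher and 493 to 678 lower with 1 library left out. The share of higher genes among the calls was 38.1% as deposited, 53.1% (867 and 767) after median centring and 49.2% (788 and 813) after quantile normalization. Erbb4 kept its call throughout, with log2 fold changes from -0.24 to -0.19. The 1 member called higher, Nrg1, became 0 without a filter, and 0 to 1 with 1 library left out. The 2 called lower became 1 without a filter, after median centring, after quantile normalization, without the variance trend and in every fit with 1 library left out. Of the pathway lists 7 genes were higher and 7 lower. These became 3 and 3 without the variance trend, 12 lower with voom, and 3 to 5 higher and 3 to 6 lower with 1 library left out. Of the reported fold changes of single genes, none changed sign with a call. The cause of these changes was not tested.

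The replicate numbers in the titles did not pair the libraries (correlations of same-numbered deviations 0.008, -0.051 and 0.011). With the replicate block 360 genes were higher and 585 lower, members 0 higher and 1 lower (Erbb4, adjusted p = 0.0325), and pathway lists 4 lower.

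Depth limits Erbb3 and Nrg4, at 2 to 15 counts per library, and the 95% intervals of Erbb2 and Nrg2 do not separate a fall like that of Erbb4 from none.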
